A study of Mus musculus with 2 samples.

Results

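The UDP-glucuronosyltransferases, soluble glutathione transferases and sulfotransferases attach glucuronic acid, glutathione or sulfate to drugs, hormones, bilirubin and bile acids. They were chosen by gene symbol from the protein-coding genes of GENCODE mouse release 21: symbols of the Ugt1a, Ugt2a, Ugt2b, Ugt3a and Ugt8a type, the Gst classes a, k, m, o, p, t and z, and Sult1 to Sult6. This gave 65 genes of 21755, with 22 UDP-glucuronosyltransferases, 22 glutathione transferases and 21 sulfotransferases. The families follow the symbol alone, so the Ugt3a and Ugt8a genes are counted under the name UDP-glucuronosyltransferase. That they attach glucuronic acid is not implied. Many of the 65 genes stand in tandem clusters, and chained within 100 kb they made 24 loci.

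Binding of GATA4 had been mapped by chromatin immunoprecipitation and sequencing in whole liver of healthy adult mice, in 1 untreated group of 2 samples. The samples were labelled biological replicates 1 and 2 with the same biosample and donor identifiers, so their spread may be technical. Age was labelled unknown and sex not collected, and no strain is named in the sources used here. The control libraries were not used here. The deposited files were peak lists, so the read depth behind each peak is unknown. The optimal list, which the authors derived from the pair of replicates, had 24050 peaks on the main chromosomes of the mouse build mm10. The replicates' own lists past the authors' reproducibility threshold were unequal, with 4287 peaks in replicate 1 and 26314 in replicate 2, so support by replicate is given beside the results.

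GATA4 is a zinc-finger transcription factor that recognises the letters AGATAA, with a first letter of A or T and a last letter of A or G, a set written WGATAR. In adult liver it is known from sinusoidal endothelial cells and from hepatocytes. The conjugating enzymes are best known from hepatocytes, where they form the second phase of detoxification: the first phase oxidises a compound, conjugation makes it water-soluble, and transporters then carry it into bile or blood. A whole-tissue peak cannot be assigned to a cell type, and a summit near a gene does not show that the gene is regulated from it.

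The DNA around the summit, the highest point of a peak, is shown for 7 peaks, because the accounts below turn on them: the 4 strongest near members, the stronger of the 2 at a Sult2a start site in both replicates, a peak on a small RNA gene, and a Ugt1a peak on a tandem repeat. Each run is the 101 bases centred on the summit, read from the mm10 sequence on the plus strand, and capitals mark WGATAR on either strand (TTATCT and CTATCT are AGATAA and AGATAG on the other strand, TTATCA and CTATCA are TGATAA and TGATAG). The last one was picked after its motif count was seen.
Gstz1, chr12:87158238-87158338: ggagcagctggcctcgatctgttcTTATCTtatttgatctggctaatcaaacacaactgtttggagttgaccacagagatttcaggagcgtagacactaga
Ugt2b36, chr5:87092565-87092665: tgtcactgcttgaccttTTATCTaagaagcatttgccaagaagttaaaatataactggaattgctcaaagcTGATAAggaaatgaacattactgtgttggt
Gstm3 and Gstm2, chr3:107974405-107974505: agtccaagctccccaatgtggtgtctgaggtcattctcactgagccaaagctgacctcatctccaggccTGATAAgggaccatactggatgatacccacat
Sult1a1, chr7:126678658-126678758: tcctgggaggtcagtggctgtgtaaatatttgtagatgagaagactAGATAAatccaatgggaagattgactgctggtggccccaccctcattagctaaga
Sult2a7, chr7:14493034-14493134: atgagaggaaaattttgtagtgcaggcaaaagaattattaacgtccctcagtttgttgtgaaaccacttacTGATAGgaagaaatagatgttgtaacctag
Upstream of Gsta4, chr9:78175386-78175486: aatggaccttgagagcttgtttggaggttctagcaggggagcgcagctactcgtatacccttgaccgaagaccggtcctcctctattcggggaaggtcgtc
Ugt1a6a intron, chr1:88143315-88143415: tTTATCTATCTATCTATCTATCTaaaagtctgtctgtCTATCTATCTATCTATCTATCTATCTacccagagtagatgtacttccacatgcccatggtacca

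The 3 families had unequal numbers of genes near a GATA4 peak. A summit inside the gene or at most 10 kb from it was found for 16 of 22 glutathione transferases, 12 of 22 UDP-glucuronosyltransferases and 3 of 21 sulfotransferases. Over all members this was 31 of 65, or 47.7%, and over all protein-coding genes it was 47.6%, so the 65 genes together stood at the background. The glutathione transferases had 72.7% (95% Wilson interval 51.8 to 86.8), the UDP-glucuronosyltransferases 54.5% (34.7 to 73.1) and the sulfotransferases 14.3% (4.98 to 34.6). The intervals cover counting error only and treat genes as independent, although neighbours share peaks, and no test was possible with 1 group of 2 samples.

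Longer genes have more room for a summit, so each family was also set beside the other protein-coding genes in the same bins of gene span. Glutathione transferase genes are short, with a median span of 6.03 kb, and like-span genes would give 8.37 with a summit where 16 were counted. For the UDP-glucuronosyltransferases, with a median span of 29.0 kb, like-span genes would give 12.2 where 12 were counted. For the sulfotransferases, with a median span of 29.1 kb, they would give 11.3 where 3 were counted. The order held in each replicate's own list for the glutathione transferases, which had the highest share in both: 5 of 22 in replicate 1 and 18 of 22 in replicate 2, where all genes stood at 11.4% and 51.8%. The sulfotransferases had 4 of 21 in replicate 2, the lowest of the families, and 2 of 21 in replicate 1, where the UDP-glucuronosyltransferases had 1 of 22. In the authors' conservative list, a stricter set of 9251 peaks in which 21.9% of all genes had a summit, the counts were 8 glutathione transferases, 7 UDP-glucuronosyltransferases and 2 sulfotransferases.

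**Figure D1:**
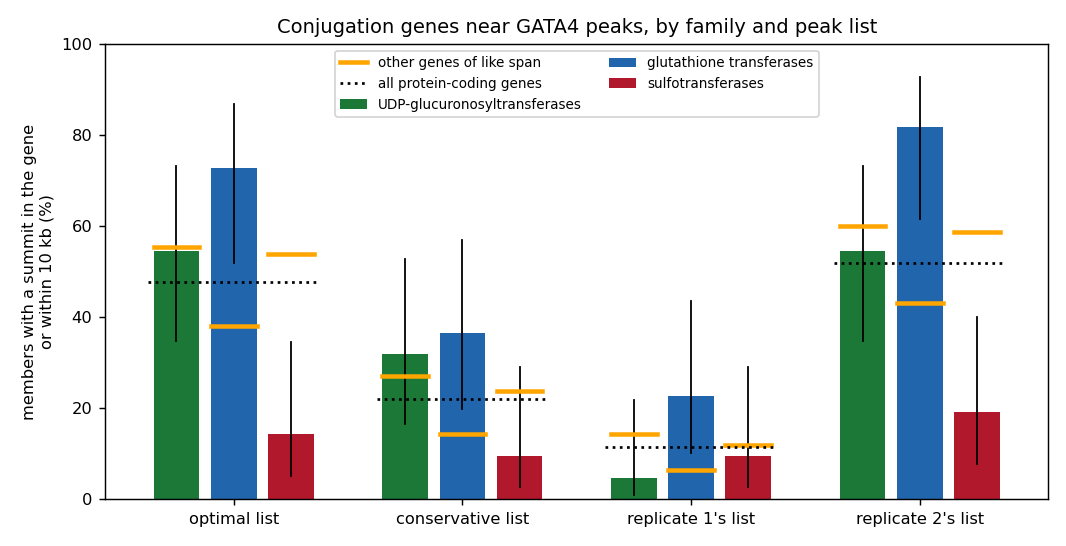
Bars give the percentage of each family's genes that had a summit inside them or at most 10 kb away, in 4 peak lists, with 95% Wilson intervals as black lines. Dotted lines mark all protein-coding genes and orange lines other genes of like span; in the optimal list the glutathione transferases stand at 72.7%, the UDP-glucuronosyltransferases at 54.5% and the sulfotransferases at 14.3%.

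Counting shared peaks once left 43 distinct peaks behind 62 pairs of a peak and a member. Of these, 35 lay near 1 member and 8 near several, up to 7 members for 1 peak. The glutathione transferases had 30 distinct peaks, the UDP-glucuronosyltransferases 8 and the sulfotransferases 5. Per 100 kb of merged gene windows this was 5.33, 1.12 and 0.473 summits, beside 1.42 over all protein-coding genes. The last value is not matched for gene span, and summits of overlapping peaks are counted separately. By locus, each of the 8 glutathione transferase loci had a peak, as did 3 of 4 UDP-glucuronosyltransferase loci, 2 of 11 sulfotransferase loci and the 1 locus that holds both of the last families. Loci ran from 3.57 to 631 kb, and no share over loci of other genes was computed. The locus counts therefore have no background to be read against. The nearest protein-coding start site belonged to a member for 42 of the 43 peaks. The exception was a peak of rank 8023, 5 bp from the start site of Cabin1 and 9804 bp from Gstt3. There were 3 pairs of overlapping peaks, so the number of separate bound regions is smaller than the number of summits.

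The peaks were spread over the whole range of strength. Ranked by the peak caller's signal score, with 1 the strongest of 24050, they ran from 1082 to 23759 with a median of 12317, close to the middle of the list. Only 3 were in the first 10% of the list and 21 were in its stronger part, above the middle. Medians were 6474 for the 5 sulfotransferase peaks, 11381 for the 30 glutathione transferase peaks and 15046 for the 8 UDP-glucuronosyltransferase peaks. So the family with the fewest bound genes had the best median rank, over 5 peaks.

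**Figure D2:**
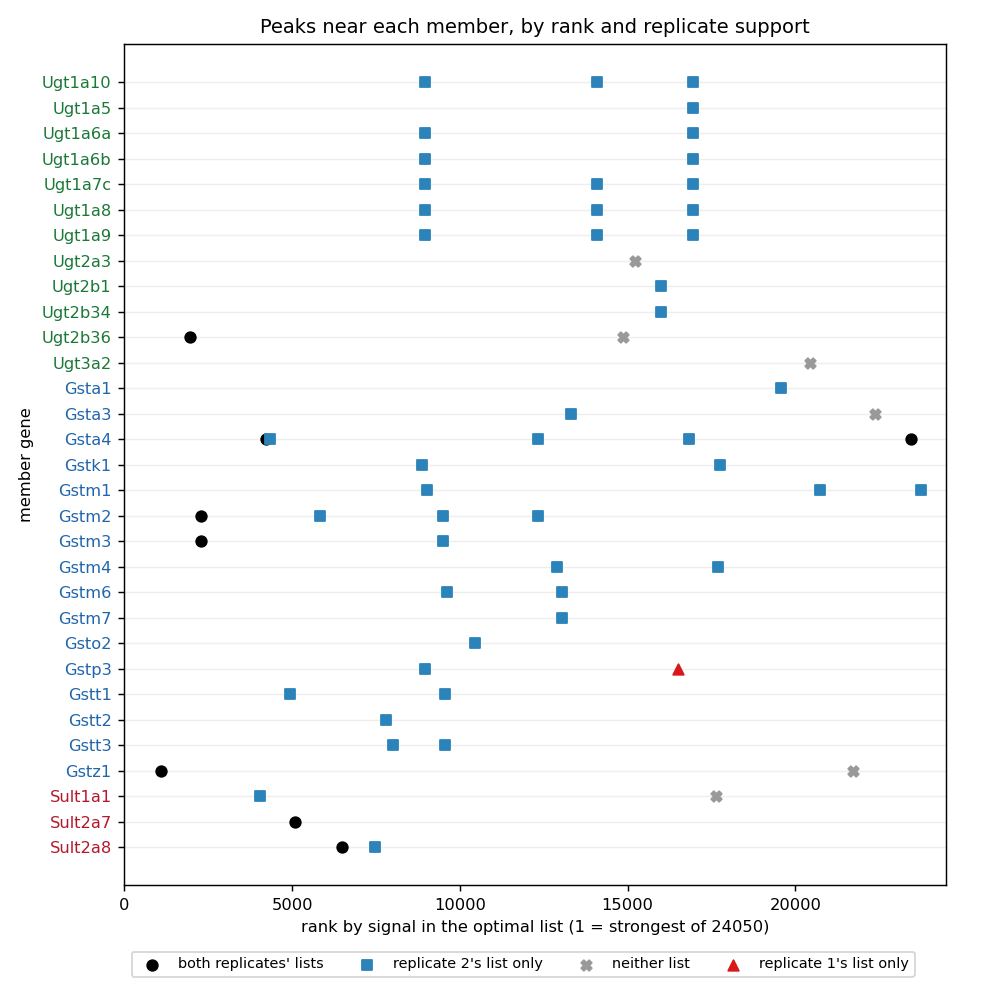
Each point is a peak, placed by its rank in the optimal list (1 is the strongest of 24050) on the row of each of the 31 members near it; a peak shared by neighbours appears on each of their rows. Symbols give the replicates' own lists that hold the peak, and gene names are coloured green for UDP-glucuronosyltransferases, blue for glutathione transferases and red for sulfotransferases; points in both lists start at rank 1082 for Gstz1.

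Among the glutathione transferases, the mu class carried the most summits. The Gstm genes, which encode enzymes for epoxides and other electrophiles, lie in 1 cluster of 149 kb on chromosome 3, where 6 of 7 genes had a summit (like-span genes would give 2.14) and 11 distinct peaks were counted. All 11 were in replicate 2's list and 1 was in replicate 1's. That peak, at rank 2277, lay between Gstm3 and Gstm2, 5172 bp upstream of the first and 7247 bp downstream of the second. In the replicates' relaxed lists, which hold 300000 peaks and background regions each, it ranked 2569 in replicate 1 and 2472 in replicate 2. Its window had 1 WGATAR and 2 copies of AGGTCA, the letters of a nuclear receptor motif. Gstm2 had 4 summits, more than any other gene of the cluster, with a peak inside an intron at rank 5832 and another 103 bp from its start site at rank 12320. Gstm7 had a peak 32 bp from its start site at rank 13049, which also lay within reach of Gstm6. Gstm1 had 3 summits, all upstream by 7633 to 8819 bp, the strongest at rank 9026. Gstm6 had a peak of its own at rank 9614, and Gstm4 had peaks at ranks 12885 and 17698. Gstm5, at the left end of the cluster, had none, its nearest start-site-to-summit distance being 33197 bp.

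The alpha class, whose enzymes reduce lipid peroxides and conjugate their products, had a summit at 3 of 4 genes, beside 2.07 for like-span genes. Gsta4, the enzyme for the lipid aldehyde 4-hydroxynonenal, had 5 summits, the most of any member, and none lay at its start site. The peak 7862 bp downstream, at rank 4236, was in both replicates' lists, and a second summit at rank 23445 lay in an overlapping peak. The peak at rank 4336, whose sequence is shown above, lay on the gene of the small nuclear RNA 7SK, Rn7sk, at chr9:78175303-78175633, and the summit of an overlapping peak, rank 12317, lay 8 bp outside it. In those 2 peaks 60.5% and 62.3% of 32-base words occur more than once in the genome, where the median over the 43 peaks was 0. Whether reads of other 7SK copies contributed was not tested. Without them Gsta4 keeps 3 summits. Gsta3 had a peak 118 bp from its start site at rank 13318, and Gsta1 had 1 peak 7458 bp upstream at rank 19562. Gsta2 had none.

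Gstz1 held the strongest peak of all members. It encodes maleylacetoacetate isomerase, a step of tyrosine breakdown. The peak, at rank 1082, lay inside the gene and 680 bp from an annotated Gstz1 start site, and was in both replicates' lists. It ranked 524 in replicate 1's relaxed list and 2076 in replicate 2's. A weaker peak at rank 21722, 223 bp from another start site of the gene, was in neither list. Of the theta class, Gstt1 had peaks at ranks 4926 and 9560, Gstt2 a peak 207 bp from its start site at rank 7811, and Gstt3 shared the peak of rank 9560 with Gstt1. Gstk1, an enzyme of mitochondria and peroxisomes, had a peak 104 bp from its start site at rank 8887 and another in an intron at rank 17762. Both were in replicate 2's list and not in replicate 1's. Gsto2 had an exonic peak at rank 10445. Gstp3 had peaks at ranks 8974 and 16492, and the second was the only peak of all 43 that replicate 1's list held and replicate 2's did not. Gstt4, Gsto1, Gstp1 and Gstp2 had no summit in the optimal list, while replicate 2's list had a summit near Gstp1 and near Gstp2.

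**Figure D3:**
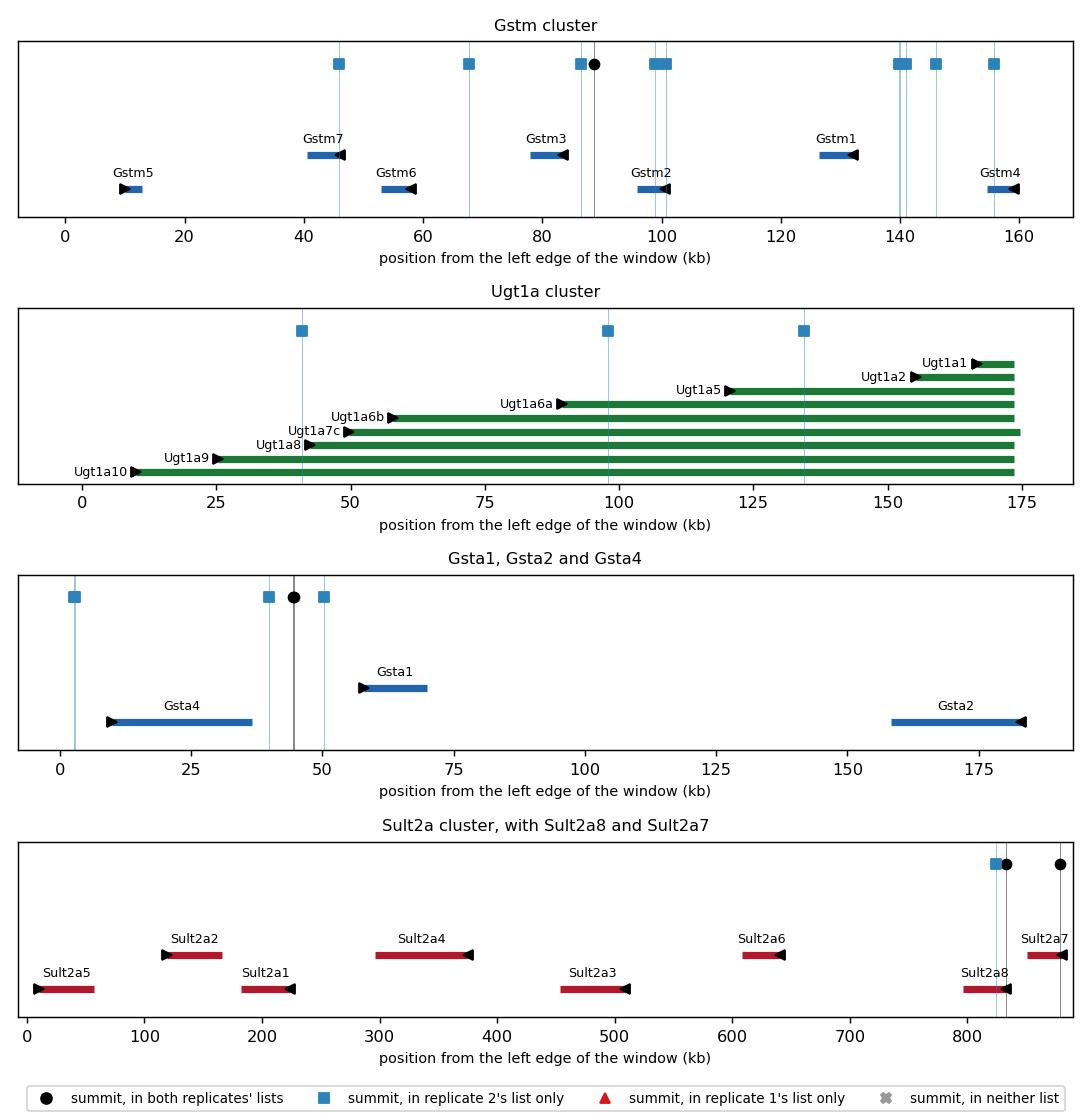
Gene bodies (coloured bars, a black triangle at the start site pointing in the direction of transcription) and summits (symbols above, by replicate support) are drawn to scale in 4 member clusters, in kb from the left edge of each window. The 11 Gstm summits spread over the cluster, the 3 Ugt1a summits lie in the shared span of several genes, and the 3 Sult2a summits lie at Sult2a8 and Sult2a7, with none at the 6 other Sult2a genes.

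Most of the UDP-glucuronosyltransferases with a summit came from a single transcription unit. The Ugt1a genes, among them the bilirubin enzyme Ugt1a1, use separate first exons joined to common last exons, so their spans overlap. Here 7 of 9 Ugt1a genes had a summit (like-span genes would give 5.50), but through only 3 distinct peaks, which gave 17 of the family's 23 pairs. The strongest of these, at rank 8970, lay in an intron 4987 bp from the Ugt1a6a start site and within 6 genes at once. Its window had 11 matches to WGATAR, the most of the 43 peaks. These stand in the tandem run of CTAT shown above, and 69.3% of the window was soft-masked as repeat. In its peak, 42.2% of 32-base words occur more than once in the genome, copies within the peak included. What the repeat contributed to the peak was not tested. It ranked 8355 and 10899 in the relaxed lists of replicates 1 and 2. All 3 peaks, the others at ranks 14097 and 16958, were in replicate 2's list and none was in replicate 1's. Ugt1a1 and Ugt1a2 had no summit within 10 kb, and the nearest lay 32085 and 20727 bp from their start sites. No Ugt1a peak was within 1 kb of a start site.

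The Ugt2b enzymes, which act on steroids and bile acids, had a summit at 3 of 7 genes, through 3 peaks, beside 3.36 for like-span genes. Ugt2b36 had the second strongest peak of all members, at rank 1965 and 60 bp upstream of its start site. It was in both replicates' lists, ranked 683 and 3000 in the relaxed ones, and its window had 2 WGATAR, 1 AGGTCA and 1 match to the CEBP motif TTGCNNAA. A weaker peak 5162 bp upstream, at rank 14858, was in neither list. Ugt2b34 had a peak 3 bp from its start site at rank 15994, and the same peak lay 9698 bp from Ugt2b1, the largest distance to a nearest summit among the members within the limit. The member just outside the limit was Gstt4, with a summit 10484 bp away. Ugt2a3 had 1 peak at its start site, at rank 15234, and Ugt3a2 had 1 peak 53 bp from its start site, at rank 20431. Neither was in a replicate's own thresholded list. The members Ugt2b5, Ugt2b35, Ugt2b37, Ugt2b38, Ugt2a1, Ugt2a2, Ugt3a1 and Ugt8a, the last an enzyme of myelin lipid synthesis, had no summit.

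The sulfotransferases had 5 peaks, and 4 were at start sites. All 5 had a WGATAR within 50 bp of the summit. Sult1a1, the main phenol sulfotransferase, had a peak 2276 bp upstream at rank 4056, with 1 AGATAA at the summit. The replicates differed here, with relaxed ranks of 47806 in replicate 1 and 3142 in replicate 2. Its other peak, 386 bp from a start site at rank 17625, ranked the other way, at 7310 and 76161, and was in neither thresholded list. The remaining 3 belonged to Sult2a7 and Sult2a8, neighbours among the enzymes that sulfate bile acids and hydroxysteroids. These were 2 of 8 Sult2a genes, where like-span genes would give 4.71. The Sult2a7 peak, at rank 5089 and 103 bp from its start site, and the Sult2a8 peak, at rank 6474 and 131 bp from its own, were in both replicates' lists. Their relaxed ranks were alike, 2529 and 7054 for Sult2a7 and 2538 and 8198 for Sult2a8. Another Sult2a8 peak, rank 7470, lay 75 bp from another start site of the gene and was in replicate 2's list only.

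The other 18 sulfotransferases had no summit in the optimal list. They were Sult2a1 to Sult2a6, Sult1b1, Sult1c1, Sult1c2, Sult1d1, the estrogen sulfotransferase Sult1e1, Sult2b1, Sult3a1, Sult3a2, Sult4a1, Sult5a1, Sult6b1 and Sult6b2. Sult2a1 to Sult2a6 stand in 1 locus of 631 kb with 0 peaks, and the nearest summit to a start site was 51224 bp away for Sult2a6 and 442934 bp away for Sult2a2. Much of their sequence is repeated. Over the 8 Sult2a genes a median of 39.0% of 32-base words in the gene window occur more than once in the genome (17.2 to 72.5). The median in 217 other genes was 8.22%. Dispersed repeats and copies within the same window are included. Among the sulfotransferases the medians were 23.3% for the 18 without a summit and 17.2% for the 3 with one, and among the glutathione transferases 17.6% for 6 and 8.83% for 16. The UDP-glucuronosyltransferases ran the other way, with 14.3% for the 10 without a summit and 26.2% for the 12 with one. Of those 12, 7 were Ugt1a genes, whose windows overlap. Over all members the medians were close, 16.6% without and 17.2% with a summit. In the other genes they were 10.8% for 116 without and 6.78% for 101 with one. The sources used here do not say how reads with several matches were handled, and the part of this in the missing peaks was not tested. The share of repeated words ran from 4.43% to 72.5% over the 18 sulfotransferases without a summit, and from 7.26% to 28.1% over the 3 with one.

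In all, 34 members had no summit within 10 kb in the optimal list. The nearest one to each of them lay a median of 31722 bp from the gene, within 50 kb for 19 and farther for 15. Of these members, 5 had a summit in replicate 2's own list: Ugt2a1, Ugt2a2, Gstp1, Gstp2 and Sult6b1. Ugt2a3 and Ugt3a2 were the reverse, with a summit in the optimal list and none in replicate 2's. In the thresholded list of the authors' later run 36 of 65 members had a summit, against 47.2% of all genes. Sult2a6 had one there and in no other thresholded list. The optimal, conservative and later run's lists and the replicates' own thresholded lists all lacked a summit for 28 members. The relaxed lists were not searched for this. The matching count over all protein-coding genes was not made, so the 28 cannot be read as particular to the members.

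Many of the peaks near these genes lay at start sites. Of the 43, 16 had a summit within 1 kb of a protein-coding start site, or 37.2% (Wilson 24.4 to 52.1), against 21.6% of the other peaks of the list and 28.6% of the other peaks near genes. The interval includes the last value and lies above the one before it. Introns held 8, or 18.6%, against 40.4% of other peaks and 53.6% of other peaks near genes, and exons held 1. Intergenic peaks numbered 18, or 41.9% (28.4 to 56.7), against 35.6% of other peaks and 14.6% of other peaks near genes. Among the glutathione transferases 16 of 30 peaks were intergenic, or 53.3% (36.1 to 69.8). The classes use protein-coding genes only. Some intergenic peaks lay in or within 1 kb of the start of other genes, such as Rn7sk, the long non-coding RNA Gm12498 and the pseudogenes Gm12494 and Gm12499. In total 13 members had a promoter peak of their own. Median GC in the 101-base window was 45.5%, against 50.5% for other peaks.

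Support by replicate was like that of the rest of the list. Of the 43 peaks, 36 overlapped replicate 2's own list, or 83.7% (70.0 to 91.9), against 82.5% of other peaks. For replicate 1 this was 8, or 18.6% (9.74 to 32.6), against 17.0%. The 7 peaks in both lists were at Gstz1, at Ugt2b36, between Gstm3 and Gstm2, at Sult2a7, at Sult2a8 and, as an overlapping pair, downstream of Gsta4. Another 6 were in neither list, which came from a later run of the authors' processing than the optimal list. In the relaxed lists of the earlier run all 43 were found in replicate 2, at ranks 2076 to 76161, and 35 in replicate 1, at ranks 524 to 293025. In replicate 1, 18 were in the first 10000 and 7 were past 100000. A rank that deep does not set a peak apart from background regions of the same list. Relaxed-list counts over the other peaks are not given here, so these cannot be read as particular to the members.

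**Figure D4:**
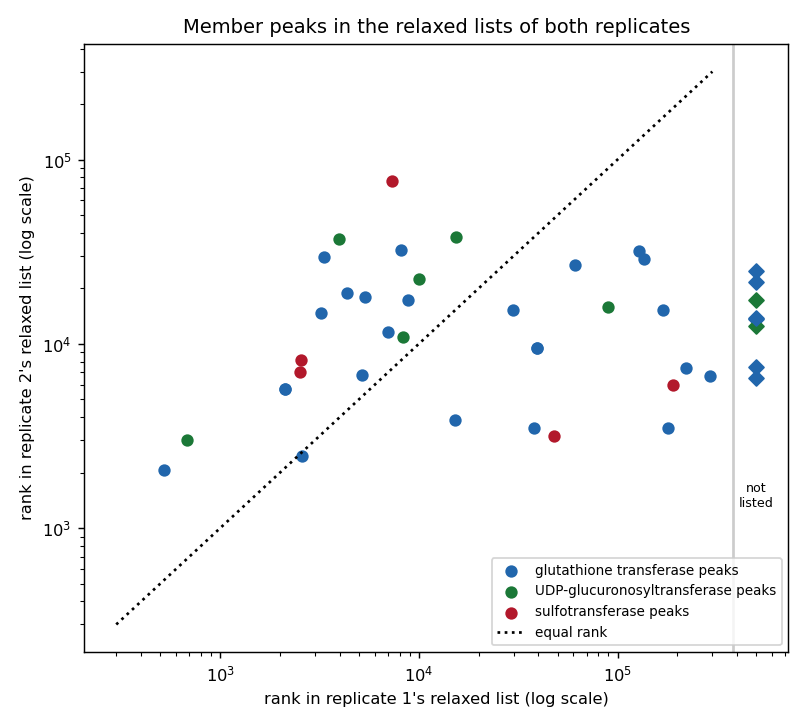
Each point is a peak near a member, placed by its rank in replicate 1's relaxed list (x axis, log scale) and in replicate 2's (y axis, log scale); the dotted line marks equal rank, and diamonds at the right are the 8 peaks that replicate 1's list does not hold. Ranks in replicate 2 end at 76161, and ranks in replicate 1 reach 293025.

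WGATAR lay within 50 bp of the summit in 25 of 43 peaks, or 58.1% (43.3 to 71.6), close to the 52.8% of other peaks. In flanking windows of equal length, centred 500 bp away on each side, the shares were 18.6% and 16.0%. At start sites the gap was wider: 9 of 16 promoter peaks had the motif, or 56.2% (33.2 to 76.9), against 25.6% of other promoter peaks. AGATAA alone was in 8 of the 16 (interval 28.0% to 72.0%), against 12.3%. The promoter peaks compared were not matched for base composition. GGGCGG, made of G and C alone, was in 1 of the 16, or 6.25% (1.11 to 28.3), against 30.5% of other promoter peaks. The part of base composition in the WGATAR gap was not tested. Away from start sites the WGATAR shares were 59.3% of 27 and 60.3%. The promoter peaks with WGATAR were at Gstz1, Ugt2b36, Sult2a7, Sult2a8 (both), Gstk1, Gsta3, Ugt2a3 and Sult1a1. By family, 16 of 30 glutathione transferase peaks, 4 of 8 UDP-glucuronosyltransferase peaks and 5 of 5 sulfotransferase peaks had the motif. Among the 8 peaks in replicate 1's list it was 5, or 62.5% (30.6 to 86.3), against 74.8% of other peaks in that list.

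The other motifs were searched on both strands in the same windows, and matches may overlap each other. AGGTCA was found in 10 of 43 peaks, or 23.3% (13.2 to 37.7), against 11.8% of other peaks. In 8 peaks, or 18.6% (9.74 to 32.6), it stood in the same window as WGATAR, against 6.40%. These 8 were at Ugt2b36, between Gstm3 and Gstm2, upstream of Sult1a1, Gstp3 and Gstm1, at Sult2a8 and Gstk1, and downstream of Gsta4. GTTAAT, part of the motif of the hepatocyte factor HNF1, was in 4 peaks, or 9.30% (3.68 to 21.6), against 2.55%: at Sult2a7, Gsta3 and Ugt2a3, and in the peak of rank 9494 between Gstm3 and Gstm2. TTGCNNAA was in 6, or 14.0% (6.56 to 27.3), against 5.85%. The antioxidant response core TGACNNNGC, bound by NRF2 at many conjugation genes, was in 5, or 11.6% (5.07 to 24.5), against 5.22%. All 5 were glutathione transferase peaks, at Gstm1, Gstm7, Gsta3, Gstm4 and Gstk1, in a family that held 30 of the 43 peaks. None of the 5 was in replicate 1's list.

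GGGCGG of the SP factors was in 1 peak, or 2.33% (0.412 to 12.1), against 9.35%, and GCGTG, the core bound by the aryl hydrocarbon receptor, in 1, against 10.4%. At start sites GGGCGG was in 1 of 16, against 30.5% of other promoter peaks, and GCGTG in 0 of 16, against 24.0%. CCGGAA or AGGAAG of the ETS factors was in 8, or 18.6% (9.74 to 32.6), against 30.2%. Split by class, it was in 7 of 16 promoter peaks, or 43.8% (23.1 to 66.8), against 29.6% of other promoter peaks, and in 1 of 27 peaks elsewhere, or 3.70% (0.657 to 18.3), against 30.3%. TGTTTAC or TGTTTGC of the FOX factors was in 2, or 4.65%, against 5.32%, and TGANTCA of AP-1 in 1, against 3.54%. CAGCTG was in 2, against 7.68%. HNF4 letters CAAAGTCCA or CAAAGTTCA were in 0 of 43, which allows a share of up to 6.98%, where other peaks had 0.975%. TTATGC or ATATGC, a set of letters searched as a control, was in 4.65% of member peaks and 3.89% of others. With 14 motif sets and 43 peaks these shares are descriptions, and a match is not a bound site.

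**Figure D5:**
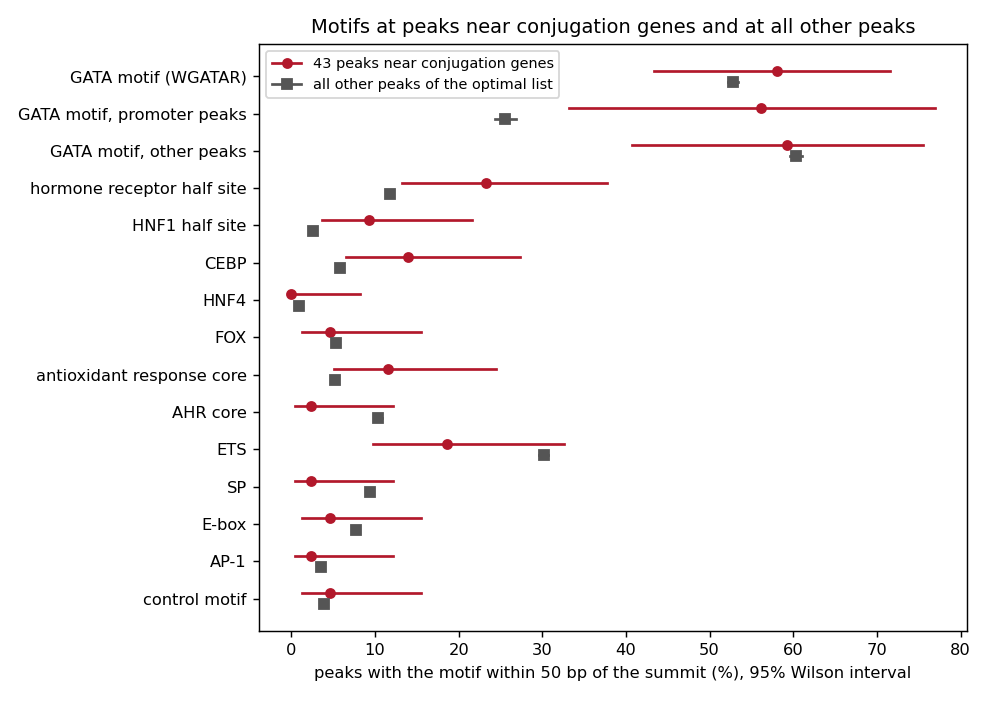
Points give the percentage of peaks with each motif within 50 bp of the summit, with 95% Wilson intervals, for the 43 peaks near conjugation genes (red circles) and all other peaks of the optimal list (grey squares). The GATA motif stands at 58.1% and 52.8% over all peaks and at 56.2% and 25.6% at promoters, where the peaks were not matched for base composition.

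Genes that act before and after conjugation were counted in the same way, from 4 lists chosen with earlier results of these data known. Of 13 genes that supply the cofactors, 10 had a summit within 10 kb, where like-span genes would give 7.29. The strongest peaks were at Gclm (rank 541), the modifier subunit of glutathione synthesis, at Ugdh (2180), which makes UDP-glucuronic acid, at Papss2 (3648), which makes the active sulfate, and at Ugp2 (4842), which makes UDP-glucose. Of 12 genes listed as other conjugating and related enzymes 9 had a summit, beside 6.04 for like-span genes. They were led by the microsomal glutathione transferase Mgst1 (rank 607) and Ptges (2274), a prostaglandin synthase rather than a conjugating enzyme. The bile acid conjugating enzyme Baat (3608) and the thiopurine methyltransferase Tpmt (5841) came next. The Tpmt peak lay inside the gene but 18 bp from the start site of its neighbour Kdm1b.

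Of 13 genes found for export and breakdown of conjugates, 12 had a summit, beside 6.99 for like-span genes. These were led by the sulfatase Arsa (rank 16), the transporter Slco1a4 (580) and the efflux pumps Abcc4 (2024) and Abcc3 (2918). Of 19 sensors and regulators 17 had a summit, beside 10.3, led by Ppara (rank 38), Cebpb (164) and the xenobiotic receptors Nr1i3 (406) and Nr1i2 (436). The Nr1i3 peak lay downstream of the gene and 1065 bp from the start site of Apoa2, and the Ppara peak lay in the gene with its nearest start site, 36485 bp away, that of Cdpf1. In replicate 1's list the counts of the 4 sets were 3, 3, 6 and 4, where 11.4% of all genes had a summit, and in replicate 2's 12, 9, 11 and 18, where 51.8% had.

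Marker genes were chosen with earlier results of these data known, so their counts are no check of the tissue. A summit within 10 kb was found for 7 of 8 hepatocyte and 7 of 7 sinusoidal endothelial markers. It was found for 1 of 4 stellate, 0 of 5 Kupffer and 0 of 4 cholangiocyte markers. The strongest peaks of Alb and Gpr182 lay nearest to the start sites of Afp and Rdh1. Like-span genes would give 3.66, 3.59, 2.08, 2.83 and 1.66 in that order, and the share over all genes was 47.6%. Peak lists hold no expression, so these counts do not give the cells' shares in the tissue.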

How the data were processed

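Peak lists from chromatin immunoprecipitation of GATA4 in 2 samples of 1 group were used. Per the file headers and tables deposited with the samples, an earlier run gave relaxed lists per replicate, the optimal list and a conservative list, and a later run gave each replicate's thresholded list. The aligner, the peak caller and the treatment of reads with several matches are not stated in the sources used here. The authors deposited a signal score per peak without a unit, used only for ranks within 1 list. The deposited IDR score (irreproducible discovery rate) is a scaled negative log2 of the rate, whose threshold is 0.05. The −log10 q-value column deposited by the authors was read and not used. Summit offsets are as deposited.

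Summits were linked to GENCODE genes on GRCm38.p6, the sequence of mm10, when in the gene or within 10 kb. Promoter means within 1 kb of a protein-coding start site. Overlap means at least 1 shared base. Genes of like span were the other protein-coding genes in 20 bins of span, weighted to the members. Word counts used 32-base words, for members and every 100th other gene. A word counted when it occurred more than once on the assembled chromosomes, in the same window or elsewhere. Python 3.11.15, numpy 2.4.6, numba 0.67.0, pysam 0.24.0 and samtools 1.23.1 were used, and the code was tested on simulated data. No p-value was computed.

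The genes, pathway lists and markers were chosen with earlier results of these data known. All members are named, with full values for the strongest peaks, and at most 4 genes of each pathway list by rank. Alternatives were other link distances, lists, thresholds, windows and bins.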

Additional observations from a re-analysis of the deposited data

How the results depend on the processing

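Of 85 alternatives over 19 results, 54 kept their value within the spread set for them and 31 moved. Members with a summit numbered 19 in the gene only (28.9% of all genes), 50 within 50 kb (68.4%), 19 within 5 kb of a start site (6527 of 21755 genes) and 17 in the conservative list (21.9%). Leaving out a replicate gave 8 to 34 members over all, 1 to 12 UDP-glucuronosyltransferases, 5 to 18 glutathione transferases and 2 to 4 sulfotransferases, the low values from replicate 1's list alone. UDP-glucuronosyltransferases numbered 19 within 50 kb, 6 by start site and 7 in the conservative list. Glutathione transferases numbered 8 in the gene only, 10 by start site and 8 in the conservative list. Sulfotransferases numbered 10 within 50 kb, 5 in the later run's list and 1 without promoter summits. Distinct peaks numbered 28 within 5 kb, 17 in the gene only, 88 within 50 kb, 17 in the conservative list and 7 to 51 when a replicate was left out. The WGATAR share was 37.2% for AGATAA alone (27.2% of all peaks), 72.1% within 100 bp (63.8%), 30.2% within 25 bp (34.4%) and 52.9% to 85.7% when a replicate was left out. In the relaxed lists 81.4% of peaks were found in replicate 1 and 100% in replicate 2. Leaving out a replicate gave 3 to 12 cofactor genes, 3 to 9 other conjugating and related enzymes, 6 to 11 export genes and 4 to 18 regulators. The number of loci, the promoter share, the median rank and the like-span counts stayed within the set spread under each alternative run for them.

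Read depth is unknown, so weak peaks and missing ones cannot be told from shallow sequencing. The optimal list leans on replicate 2, and values by replicate 1 alone rest on 7 peaks. No paired analysis was possible because there was 1 group.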
